A study of Mus musculus with 36 samples.

Results

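The enzymes described here are the UDP-glycosyltransferases, the glutathione transferases and the sulfotransferases of mouse liver, the main enzymes of phase II (conjugating) metabolism. The members were all genes of the expression table whose symbols begin with Ugt1, Ugt2, Ugt3, Gsta, Gstm, Gstp, Gstt, Gsto, Gstz, Mgst or Sult, without the 8 listed under a -ps (pseudogene) suffix, which gave 66 of the 49315 genes listed. They comprise 24 glutathione transferases (GST), 21 UDP-glycosyltransferases (UGT) and 21 sulfotransferases (SULT). The study sequenced liver polyA RNA of 36 male mice, 11 to 12 weeks old, in 9 groups of 4. In these mice CRISPR had been used to place phenylalanine (F) instead of tryptophan (W) at residue 441 of LXRalpha, the liver X receptor alpha, a nuclear receptor for oxidised cholesterol, which the study's description pairs with the symbol Nr1h2 although Nr1h3 is the usual one. The mutation is in the germline, so it is not limited to 1 liver cell type. W/W mice carried the normal residue on both copies, W/F mice were heterozygous and F/F mice homozygous for phenylalanine. Of each genotype, 4 mice ate normal chow, 4 ate a diet that promotes metabolic dysfunction-associated steatohepatitis (the MASH diet, Teklad TD.96121) for 4 weeks with vehicle by daily gavage over the last 2 weeks, and 4 ate that diet with 10 mg/kg T0901317, a synthetic LXR agonist, gavaged over the same 2 weeks. The chow mice were an independent cohort and were not listed as gavaged, so diet, gavage and cohort cannot be told apart. The vehicle and T0901317 mice ate the same diet.

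Phase II enzymes attach a polar group to hormones, bilirubin, bile acids, drugs and products of lipid oxidation, and the conjugates then leave the cell through efflux pumps. UGT enzymes in the endoplasmic reticulum transfer a sugar from a UDP-sugar, GST enzymes join glutathione to reactive electrophiles, and SULT enzymes in the cytosol transfer sulfate from the activated donor PAPS. In mouse liver these genes are best known for their control by NRF2 (the sensor of oxidative and electrophilic stress), by the receptors AHR, CAR and PXR, and, for many members, by the male or female pattern of growth hormone through STAT5.

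The sequences upstream of 5 GST genes of the Alpha and Mu classes are shown as examples. Gsta1, Gstm1, Gstm3 and Gstm5 were higher and Gsta3 was lower in F/F than in W/W livers on vehicle. These are not the 5 GST genes with the largest changes there. Gstp2 and Gstm2 rose more than Gstm1 and Gstm5, and Gstt3 fell more than Gsta3. The sequences are from RefSeq promoters of the build GRCm38.p6 and are written 5′ to 3′ on the strand of the gene. Only bases within 250 bases before the RefSeq start and outside the GENCODE M21 gene are printed. Capitals mark a match to the core of the antioxidant response element bound by NRF2 (TGACNNNGC) or to the STAT5 site (TTCNNNGAA), each searched on both strands, and a sequence without capitals holds neither.
Gsta1, chr9:78230419-78230655, plus strand: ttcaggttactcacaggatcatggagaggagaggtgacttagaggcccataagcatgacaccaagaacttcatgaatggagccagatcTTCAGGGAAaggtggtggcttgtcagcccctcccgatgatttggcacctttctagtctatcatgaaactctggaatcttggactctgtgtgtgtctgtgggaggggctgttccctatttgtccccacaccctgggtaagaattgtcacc
Gsta3, chr1:21240335-21240584, plus strand: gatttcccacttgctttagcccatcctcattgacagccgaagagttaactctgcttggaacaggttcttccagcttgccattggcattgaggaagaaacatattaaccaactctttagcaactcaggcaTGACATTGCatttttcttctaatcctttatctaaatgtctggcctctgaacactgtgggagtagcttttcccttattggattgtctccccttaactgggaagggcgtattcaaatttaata
Gstm1, chr3:108017974-108018223, minus strand: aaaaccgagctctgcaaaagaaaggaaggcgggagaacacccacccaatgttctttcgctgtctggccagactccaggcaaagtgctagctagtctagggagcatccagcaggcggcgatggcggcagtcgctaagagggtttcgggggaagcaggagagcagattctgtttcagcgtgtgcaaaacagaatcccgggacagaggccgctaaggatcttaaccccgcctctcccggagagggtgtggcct
Gstm3, chr3:107969284-107969424, minus strand: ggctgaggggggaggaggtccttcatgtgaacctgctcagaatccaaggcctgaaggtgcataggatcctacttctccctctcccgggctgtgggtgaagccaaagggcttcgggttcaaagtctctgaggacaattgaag
Gstm5, chr3:107895604-107895820, plus strand: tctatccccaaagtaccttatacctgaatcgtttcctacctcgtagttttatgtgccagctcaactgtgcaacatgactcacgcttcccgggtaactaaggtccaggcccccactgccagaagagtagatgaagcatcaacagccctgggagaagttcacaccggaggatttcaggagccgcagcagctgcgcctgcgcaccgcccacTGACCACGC
The match in Gsta1 is to the STAT5 site and begins 162 bases before the start. The matches in Gsta3 and Gstm5 are to the antioxidant response element core and begin 121 and 42 bases before it. Of the 66 members, 58 had a RefSeq promoter in the table used. In the whole window of 250 bases the antioxidant response element core was found in 4 of these 58 (Gsta3, Gstm5, Gstm7 and Mgst1), or 6.90%, and in 11.5% of 27025 genes. The STAT5 site was found in 4 (Gsta1, Gstm6, Sult3a1 and Ugt1a6a), or 6.90%, and in 8.13% of the 27025 genes. The shares of members with either motif were thus not above those of all genes, and the 4 genes above that rose held no motif of this pair in common. A match is a match of letters only, and promoters lie close to the start while many regulatory sites do not.

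Values are transcripts in each 1000000 (TPM), and n is 4 livers in every group. Depth recovered from the values was 18.0 to 35.8 M reads per library (M, 1000000), at which 3 reads of Gsta1 correspond to 0.229 to 0.431 TPM. In the tests, a log2 fold change is a difference of group means of log2(TPM + 1), which understates the change of low genes. The adjusted p comes from limma over 16638 genes that reached 1 TPM in 4 or more livers. TPM sum to the same total in every liver, and the median gene differed between groups on this scale, by 0.70 (log2) in F/F against W/W on vehicle, 0.52 in W/F against W/W on vehicle and 0.29 in F/F against W/W on chow. A rescaled value, in which each liver was divided by its median ratio over 13950 genes, is therefore given beside the counts and beside many of the single changes. Changes are on the deposited scale where no other is named. The livers expressed the hepatocyte markers in every group, with albumin (Alb) at group means of 19352 TPM or more. The summed hepatocyte markers ranged from 66360.1 to 88491 TPM in W/W vehicle livers and from 36716 to 39308 TPM in F/F vehicle livers, for 7 of the 8 names fixed. Summed macrophage markers (8 of 8 found) were at 165 to 313 TPM in W/W vehicle livers and 3926 to 5036 TPM in F/F, and cholangiocyte markers (7 of 7) at 54.8 to 62.5 TPM and 2927 to 3571 TPM. In bulk liver, fewer cells of a type and less RNA per cell cannot be told apart, and the part of these shifts in the results below was not tested. The labels list separate samples but do not say how the mice within a group were related, so p-values measure the spread between these livers.

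Of the 66 members, 48 passed the filter on low values: 21 of 24 GST, 17 of 21 UGT and 10 of 21 SULT. The Gsta, Gstm, Gstp, Gstz and Ugt3 genes all passed, 7 of 9 Ugt1 and 8 of 10 Ugt2 genes passed, and the Sult3, Sult4 and Sult6 families had no member that did. Among the 18 others, Sult1c1, Sult2a4, Sult2a6, Ugt2a1 and Ugt2a2 were at 0 in all 36 livers, and Gstt4, Sult3a2 and Sult6b2 never exceeded 3 reads. A member such as Sult2a1 or Sult2a2 passed only through the groups in which it was high, so counts over the 48 describe the members and support nothing beyond that. Several members share sequence. Ugt1a genes use common final exons, so reads of these exons cannot be assigned to 1 of them and the values of single Ugt1a genes are uncertain. Of the 75-base stretches of Gsta1, 84.7% occur elsewhere among annotated transcripts, against 50.1% for Gstp2, 47.2% for Sult2a2, 29.2% for Gstp1 and 21.6% for Gstm3. How the authors counted such reads is not given in the sources used here, and levels and changes of these members carry that uncertainty.

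In W/W livers on chow a few genes held most of each class. Gstp1, the Pi-class transferase that is higher in male than in female mouse liver, held 39.7% of the summed GST level, at 3897, 4549, 7482 and 3826 TPM. The microsomal transferase Mgst1 followed with 23.3% and the Mu-class Gstm1 with 15.1%, and the 4 livers of Mgst1 and Gstm1 did not overlap (3142, 2291, 3177 and 2957 TPM against 2104, 1177, 2037 and 2205 TPM). Gstz1, the maleylacetoacetate isomerase of tyrosine breakdown, held 6.32% and Gsta3 5.83%, with overlapping livers. Among the UGT genes, Ugt2b5 (30.6%), Ugt2b36 (19.1%) and Ugt2b1 (14.6%), members of the family that glucuronidates steroids and bile acids, came first. The next UGT levels, 262 ± 52.8 TPM for Ugt2a3, 258 ± 24.1 TPM for Ugt3a2, 249 ± 58.9 TPM for Ugt2b34 and 189.7 ± 47.5 TPM for Ugt2b35 (mean ± SD), overlapped between neighbours, and Ugt1a1, the bilirubin transferase, stood at 167 ± 35.5 TPM. The sulfotransferase level was mostly Sult2a8, a bile acid sulfotransferase, with 58.0%, then the phenol enzyme Sult1a1 with 29.4% and Sult1d1, which acts on catecholamines, with 9.39%.

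The summed level of each class moved differently across the groups. Summed GST TPM was 10476 ± 562 in W/W vehicle livers, 17457 ± 1292 in W/F livers and 13879.7 ± 2105 in F/F livers (mean ± SD), and on T0901317 it was 12469 ± 2246, 13732 ± 1411 and 18276 ± 2778. Summed UGT TPM on vehicle was 3125, 3502, 3289.8 and 3280.0 in W/W, 2457, 2468, 2172 and 2549 in W/F livers and 1784, 1890.3, 1647 and 1655 in F/F livers, so the 3 genotypes did not overlap and F/F was lowest. Summed SULT TPM on vehicle was 1191, 1143, 1111 and 1202 in W/W, 528, 531, 598 and 442 in W/F livers and 569.6, 435, 396 and 495 in F/F livers. Both mutant groups lay below all W/W livers and overlapped each other. After rescaling, the summed GST level was 13213 ± 1288 in W/W vehicle livers and 9647 ± 1576 in F/F, so the direction of the GST sum in F/F against W/W on vehicle depends on the scale, while the UGT sum (4155 ± 272 and 1210.3 ± 72.1) and the SULT sum (1468 ± 169.7 and 329 ± 54.4) were lower in F/F on both. A sum is dominated by its most abundant genes, and the genes behind it moved in different directions.

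**Figure D1:**
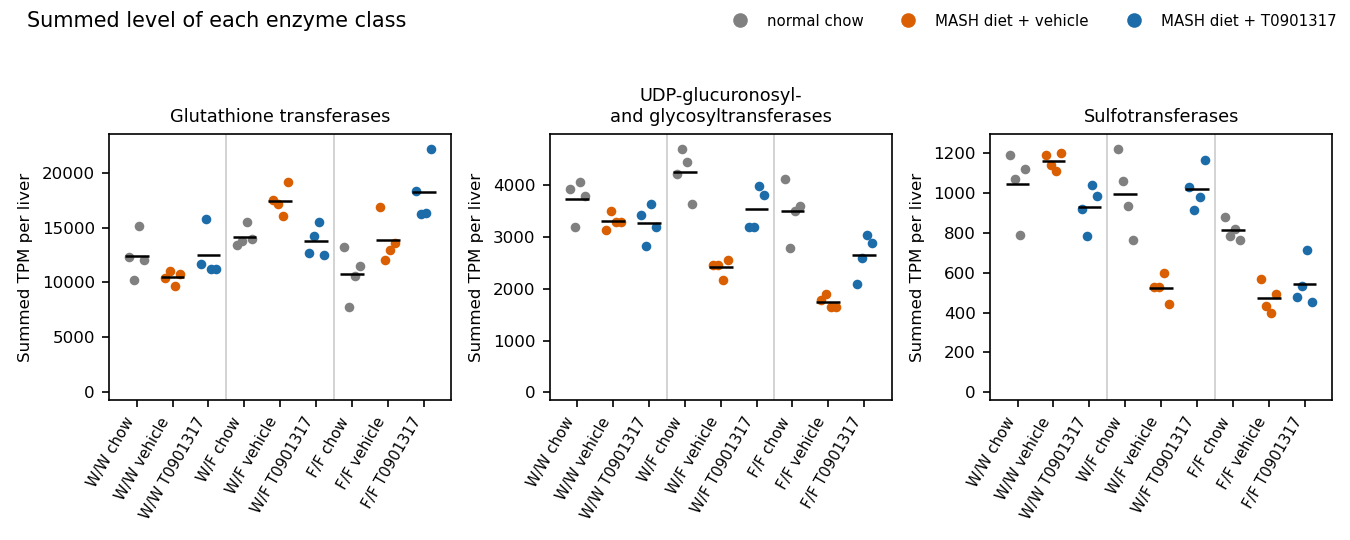
Summed TPM of all glutathione transferase, UDP-glycosyltransferase and sulfotransferase members in each liver (points, 4 a group) with the group mean (bar), by genotype and treatment, on the deposited scale. On vehicle the UGT and SULT sums of W/F and F/F livers lie below those of all W/W livers, with means of 3299, 2411 and 1744 TPM for UGT.

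The comparison of genotypes on the MASH diet with vehicle asks what the residue does in steatotic liver without agonist. On the deposited scale more GST genes rose than fell, while more UGT and SULT genes fell than rose. In every class, though, a smaller share rose and a larger share fell on that scale than among all genes. After rescaling more members fell than rose in every class in F/F livers. In F/F against W/W, 16 of the 48 members tested rose and 21 fell, where 69.3% of all genes tested rose and 7.13% fell. Of 21 GST genes tested 11 rose and 5 fell, of 17 UGT genes 3 and 11, and of 10 SULT genes 2 and 5. On the rescaled values the members gave 10 up and 29 down, against 31.3% and 27.7% of all genes, with 7 up and 10 down among GST, 2 and 13 among UGT and 1 and 6 among SULT. Of these, 10 of the rises and 21 of the falls were called on both scales, and Gstm6 and Ugt2b35 changed sign between them. In W/F against W/W, 16 rose and 17 fell (61.6% and 6.83% of all genes), and after rescaling 12 and 26 (27.8% and 25.3%). By class the counts on the deposited scale were 11 up and 5 down for GST, 3 and 8 for UGT, and 2 and 4 for SULT. Both comparisons use the same 4 W/W vehicle livers.

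The Mu-class gene Gstm3 (chr3:107963696-107969283, minus strand, GRCm38) gave the greatest rise of any member in either mutant on vehicle. It measured 19.8, 48.1, 24.2 and 41.2 TPM in the W/W vehicle livers, 2722, 2859, 2746 and 3417 TPM in W/F livers and 3214, 2288, 2473 and 2389 TPM in F/F livers. Every mutant liver was above every W/W liver, and W/F and F/F overlapped. The log2 fold change was 6.31 ± 0.52 (SE, limma adjusted p = 5.73e-12) in F/F and 6.5 ± 0.52 (SE, limma adjusted p = 1.13e-11) in W/F, and 5.47 and 5.85 after rescaling. Gsta1 (chr9:78230656-78242684, plus strand), an Alpha-class enzyme that reduces lipid hydroperoxides, measured 1.94, 2.54, 2.84 and 2.05 TPM in W/W, 122, 118, 117 and 176 in W/F livers and 86.1, 49.6, 61.7 and 63.1 in F/F livers. The 3 genotypes did not overlap, and W/F was the highest. Its change was 4.29 ± 0.49 (SE, limma adjusted p = 3.76e-09) in F/F and 5.31 ± 0.49 (SE, limma adjusted p = 1.36e-10) in W/F, and 3.53 and 4.75 after rescaling. Gstm1 (chr3:108012255-108017973, minus strand), the main Mu-class enzyme of mouse liver, went from 1124, 1796, 1328 and 1412 TPM in W/W to 5931, 6079.9, 6023 and 6880.4 TPM in W/F livers and 5015, 3094, 3525 and 3883 TPM in F/F livers. Here too W/F livers were the highest, with no overlap among the 3 genotypes. The change of Gstm1 was 1.45 in F/F and 2.16 in W/F, or 0.59 and 1.5 after rescaling. Through these rises Gstm1 and Gstm3 held 27.9% and 18.7% of the summed GST level in F/F vehicle livers, against 13.5% and 0.318% in W/W.

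The other Alpha- and Mu-class genes followed in part. Gsta4, which conjugates hydroxynonenal from oxidised lipids, measured 98.8, 124, 108 and 103 TPM in W/W vehicle livers, 339, 329, 298 and 349 in W/F livers and 277, 216, 236 and 256 in F/F livers, again without overlap and highest in W/F. Its change in F/F was 1.17 (limma adjusted p = 1.74e-04), and on the rescaled values it was 0.32 (limma adjusted p = 0.280). Gsta2 went from 50.9 ± 9.54 TPM in W/W to 126 ± 21.8 TPM in F/F (mean ± SD), by 1.29, and by 0.45 (limma adjusted p = 0.271) after rescaling, so the call for both genes in F/F rests on the deposited scale. Gstm5 measured 9.85, 10.8, 9.93 and 9.53 TPM in W/W, 29.0, 31.0, 28.1 and 23.9 in W/F livers and 44.1, 46.4, 41.4 and 48.1 in F/F livers. It rose by 2.06 (limma adjusted p = 1.11e-13) in F/F and by 1.39 in W/F, and in contrast to Gsta1 and Gstm1 its F/F livers lay above all W/F livers. Gstm2 rose from 46.0 ± 9.48 to 228 ± 17.1 TPM, by 2.30 (limma adjusted p = 9.65e-10), and 1.45 after rescaling. Of the other 3 Mu-class genes, Gstm4 went from 69.7 to 74.7 TPM (0.14, limma adjusted p = 0.604) and Gstm7 from 62.2 to 52.0 TPM (-0.25, limma adjusted p = 0.0770) in F/F, and both were called lower there after rescaling (-0.70, limma adjusted p = 0.00678, and -1.09, limma adjusted p = 2.92e-08). Gstm6 went from 79.1 to 105 TPM. Gstm6 was called up on the deposited scale (0.43, limma adjusted p = 0.0385) and down on the rescaled one (-0.42, limma adjusted p = 0.0381), so it has no direction of its own here, and the deposited call was lost without W/W vehicle replicate 1 (0.27) or 4 (0.43) or F/F vehicle replicate 1 (0.38) or 3 (0.40). Gsta3, an Alpha-class gene that was the most abundant of its family in W/W livers, went the other way, from 680.2 ± 63.8 TPM in W/W to 439 ± 53.9 TPM in W/F livers and 294 ± 72.7 TPM in F/F livers, a fall in F/F of -1.24 (limma adjusted p = 1.64e-07) and of -2.09 after rescaling. Within the Alpha family, therefore, Gsta1 rose and Gsta3 fell in the same livers on both scales.

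In the Pi class the minor gene changed and the major one changed less. Gstp2 (chr19:4040285-4046023, minus strand) measured 10.9, 13.1, 8.63 and 12.6 TPM in W/W vehicle livers, 139.9, 87.7, 99.1 and 132 in W/F livers and 117, 138, 148 and 112 in F/F livers. All mutant livers lay above all W/W livers, with a log2 fold change of 3.41 ± 0.45 (SE, limma adjusted p = 7.33e-08) in F/F and 3.22 in W/F (2.58 and 2.59 rescaled). Gstp1 (chr19:4035407-4037985, minus strand) measured 2984, 2865, 2614 and 3459.9 TPM in W/W, 3999, 3191, 2642 and 3623 in W/F livers and 4131, 3072, 3208 and 3179.9 in F/F livers, and the groups overlapped. Its deposited change in F/F was 0.19 (limma adjusted p = 0.449), and its rescaled change was -0.67 (limma adjusted p = 0.0120). Gstp3 went from 32.3 to 72.3 TPM, by 1.12 (limma adjusted p = 7.53e-07), and 0.28 (limma adjusted p = 0.165) after rescaling. Gstp1 and Gstp2 share sequence, so part of the Gstp2 level may be reads of Gstp1, and the part of shared reads was not tested. Among the microsomal enzymes, which protect membranes against lipid peroxides, Mgst3 measured 13.8, 29.7, 17.8 and 16.9 TPM in W/W, 77.8, 81.8, 81.7 and 93.6 in W/F livers and 83.2, 60.9, 77.9 and 88.7 in F/F livers, and Mgst1 measured 3778, 3528, 3276 and 3317, then 2274, 2077, 1958 and 2265, then 1844, 1601, 1564 and 1701 TPM. Both mutant groups were separate from W/W, above it for Mgst3 and below it for Mgst1, and W/F and F/F overlapped for Mgst3: Mgst3 rose by 1.98 (limma adjusted p = 1.69e-06) and Mgst1 fell, with -1.05 (limma adjusted p = 9.16e-11), in F/F. After rescaling the changes were 1.14 and -1.91.

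The Theta-class genes Gstt1 and Gstt3 and the Zeta-class gene Gstz1 were lower in both mutants on vehicle, and the Theta-class gene Gstt2 was not called. Gstt3 (chr10:75774115-75781414, minus strand) measured 46.5, 50.3, 51.4 and 37.9 TPM in W/W, 14.2, 21.4, 17.0 and 21 in W/F livers and 19.8, 14.3, 16.3 and 19.6 in F/F livers. All mutant livers were below the lowest W/W liver, and the change was -1.36 ± 0.31 (SE, limma adjusted p = 1.97e-04) in F/F, or -2.18 after rescaling. Gstz1 measured 864, 887, 807 and 878 TPM in W/W, 461, 539, 509 and 495 in W/F livers and 508, 358, 382 and 424 in F/F livers, and both mutant groups lay below every W/W liver. It fell, with log2 fold changes of -1.05 in F/F and -0.78 in W/F (limma adjusted p = 9.51e-12 and 9.29e-09), or -1.91 and -1.44 after rescaling. Gstt1 went from 320.5 ± 23.6 to 173 ± 18.1 TPM (mean ± SD), with -0.89 (limma adjusted p = 1.08e-04) in F/F, and -0.77 (limma adjusted p = 6.95e-04) in W/F. Gstt2 stood at 85.8 and 116 TPM (0.43, limma adjusted p = 0.0839), and the Omega-class Gsto1 at 88.2 and 95 TPM (0.10, limma adjusted p = 0.355). Neither passed the test on the deposited scale, and after rescaling Gsto1 was called down (-0.74, limma adjusted p = 6.99e-06).

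On chow, without the MASH diet, F/F against W/W gave more calls than W/F against W/W, among the members as among all genes. In F/F against W/W, 6 members rose and 13 fell (43.0% and 3.65% of all genes), and after rescaling 3 rose and 24 fell (16.1% and 13.8%). In W/F against W/W no member rose and 2 fell, Gstm7 and Ugt1a5 (at an unadjusted p under 0.05, 7 up and 4 down), with 0.198% and 0.288% of all genes, and 0.192% and 0.409% after rescaling, which gave the same counts. Neither W/F call held in all leave-one-out fits: none was left without W/W chow replicate 1, 2 or 4 or without W/F chow replicate 1 or 4, and 1 was left without W/F chow replicate 3. Gsta1 measured 1.61, 1.38, 1.43 and 4.29 TPM in W/W, 0.752, 1.11, 5.82 and 1.10 in W/F livers and 8.26, 10.6, 41.7 and 57.1 in F/F livers on chow. Gstm3 measured 119, 82.2, 144 and 120.3 TPM, 63.7, 139.6, 174 and 148 TPM and 421, 160.4, 769 and 917 TPM in the same order. For both genes W/W and W/F overlapped and the F/F livers lay above all W/W livers. However, 2 of the 4 F/F livers (replicates 3 and 4) held most of the rise of each gene. The lowest F/F liver for Gstm3 (160.4 TPM) was close to the highest W/W liver (144 TPM). The F/F change was 2.93 ± 0.49 (SE, limma adjusted p = 2.21e-05) for Gsta1 and 2.02 ± 0.52 (SE, limma adjusted p = 0.00239) for Gstm3. Gstm1 was at 2104, 1177, 2037 and 2205 TPM in W/W and 1412, 929, 2201 and 2516 TPM in F/F, with overlap and no call (-0.15, limma adjusted p = 0.677), and Gstp1 at 6422, 2667, 2925 and 3186 TPM in F/F overlapped W/W as well (-0.42, limma adjusted p = 0.120, and -0.80, limma adjusted p = 0.00785, after rescaling). Gstz1 and Mgst1 were already lower on chow, with -0.31 (limma adjusted p = 0.00547) and -0.31 (limma adjusted p = 0.0125), changes of smaller size than on vehicle. Whether the genotype difference itself changed from chow to the MASH diet with vehicle is tested by the difference of the diet responses. Diet, gavage and cohort change together in that test.

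T0901317 against vehicle asks how the agonist acts on each genotype, and the GST genes Gstm3 and Gsta1 moved in opposite directions in W/W and W/F livers. In W/W, 15 members rose and 3 fell (7.87% and 2.91% of all genes), and after rescaling 16 and 3 (8.05% and 5.52%). In W/F, 17 rose and 15 fell (6.59% and 59.3%), and after rescaling 27 and 8 (23.5% and 27.3%). In F/F, 21 rose and 3 fell (3.95% and 31.2%), and after rescaling 29 and 0 (8.28% and 8.12%, at an unadjusted p under 0.05 32 and 2 by limma). The F/F count of 24 calls fell to 14 without F/F T0901317 replicate 3. By class, GST gave 10 up and 1 down in W/W, 6 and 10 in W/F and 5 and 2 in F/F. UGT gave 3 and 2, 7 and 3, and 11 and 1 in that order, and SULT gave 2 and 0, 4 and 2, and 5 and 0. After rescaling GST gave 11 and 1 in W/W, 9 and 6 in W/F and 11 and 0 in F/F. UGT then gave 3 and 2, 13 and 1, and 13 and 0, and SULT gave 2 and 0, 5 and 1, and 5 and 0, so the excess of GST falls in W/F depends on the scale. The difference of the response between genotypes was called for 32 members in W/F against W/W (58.5% of all genes, 43.9% rescaled) and for 23 in F/F against W/W (30.4% and 17.5%). Both differences share the W/W livers of both treatments. Marker sums moved with the agonist too. In W/F livers macrophage markers went from 3126 to 4186 TPM on vehicle to 158 to 1019 TPM with T0901317, cholangiocyte markers from 1169 to 1600.4 TPM to 104 to 279.5 TPM, and pericentral hepatocyte markers from 3515 to 5222 TPM to 11402 to 14472 TPM. In F/F livers with T0901317 these sums were 1492 to 2353, 765 to 1712 and 3654 to 8063 TPM. Their part in the responses of the members was not tested.

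Gstm3 rose with T0901317 in W/W livers, from 19.8, 48.1, 24.2 and 41.2 TPM on vehicle to 322, 1230.4, 243 and 317 TPM, and fell in W/F livers, from 2722, 2859, 2746 and 3417 TPM to 169, 992, 184 and 117 TPM. In F/F it was 3214, 2288, 2473 and 2389 TPM on vehicle and 3757, 2833, 2465 and 5862 TPM on T0901317. The W/W and W/F groups did not overlap between treatments, and in each replicate 2 of the T0901317 group was far above the other 3, while the F/F groups overlapped. The log2 fold change was 3.70 ± 0.52 (SE, limma adjusted p = 7.12e-06) in W/W, -3.57 ± 0.52 (SE, limma adjusted p = 8.26e-07) in W/F and 0.46 ± 0.52 (SE, limma adjusted p = 0.513) in F/F. Without W/F T0901317 replicate 2 the W/F value was -4.24 (limma adjusted p = 7.70e-09). The response differed from W/W by -7.27 in W/F (-7.94 without W/F T0901317 replicate 2) and by -3.24 (limma adjusted p = 0.00184) in F/F. Gsta1 measured 7.0, 20.4, 6.80 and 6.86 TPM in W/W with T0901317, 17.6, 41.5, 22.9 and 6.76 in W/F livers and 96.1, 84.3, 84.6 and 149.6 in F/F livers. Against vehicle, all W/W livers were higher, all W/F livers lower, and the F/F groups overlapped. The W/F change was -2.76 ± 0.49 (SE, limma adjusted p = 1.39e-05), and the difference of the responses was -4.36 (limma adjusted p = 4.88e-06). The W/W change of 1.60 (limma adjusted p = 0.0295) lost its call without W/W vehicle replicate 1 (1.55), W/W vehicle replicate 4 (1.56) or W/W T0901317 replicate 2 (1.25). Gstm1 was at 3316, 7059, 3112 and 3329.7 TPM in W/W with T0901317, 2407, 3956, 3207 and 2104 in W/F livers and 6657, 5265, 5501 and 7371 in F/F livers, so that it again separated from vehicle upwards in W/W (1.5, limma adjusted p = 3.58e-04) and downwards in W/F (-1.13, limma adjusted p = 7.18e-04). The W/F call of Gstm1 was lost after rescaling (-0.53, limma adjusted p = 0.0858). In F/F, too, all Gstm1 livers with T0901317 lay above all vehicle livers.

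The Pi-class gene Gstp1, the most abundant GST on chow, fell with T0901317 in W/W livers. It measured 770.2, 829.9, 702 and 647 TPM there, below each of the 4 vehicle livers at 2984, 2865, 2614 and 3459.9 TPM, a change of -2.01 ± 0.22 (SE, limma adjusted p = 1.10e-07). In W/F with T0901317 it was 3071, 3093, 6077 and 4231 TPM, and in F/F 3071, 3274, 2907 and 3374 TPM, values that overlapped the vehicle groups of those genotypes (0.25, limma adjusted p = 0.325, and -0.10, limma adjusted p = 0.753). After rescaling the W/F change was called, at 0.85 (limma adjusted p = 0.00238). The difference of the response from W/W was 2.26 (limma adjusted p = 6.15e-07) in W/F and 1.92 (limma adjusted p = 5.34e-05) in F/F, and 2.93 and 2.25 after rescaling. Male-biased liver markers (8 genes) summed to 18718 to 21336 TPM in W/W vehicle livers and 2729 to 8037 TPM with T0901317, and in F/F to 3764 to 8887 TPM on vehicle and 14760.2 to 18529 TPM with T0901317, and their part in the Gstp1 levels was not tested. The minor Pi gene Gstp2 went from 11.3 to 5.32 TPM in W/W (-0.99, limma adjusted p = 0.180) and from 115 to 24.8 TPM in W/F (-2.18, limma adjusted p = 1.12e-04), and Gstp3 rose in W/W (0.68, limma adjusted p = 0.00697) and fell in W/F (-1.13, limma adjusted p = 1.41e-06). The share of Gstp1 in the summed GST level was 28.5% in W/W vehicle livers and 5.91% in W/W livers with T0901317, when Gstm1 took 33.7%.

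Genes of the Theta class rose with the agonist, among them Gstt2 and Gstt3 in W/W, Gstt1 and Gstt3 in W/F and Gstt3 in F/F. Gstt3 measured 168, 159, 144 and 153 TPM in W/W with T0901317 and 82.3, 53.6, 43.9 and 60.4 TPM in W/F, above all vehicle livers of the same genotype. The changes were 1.73 ± 0.31 (SE, limma adjusted p = 1.89e-04) in W/W and 1.64 ± 0.31 (SE, limma adjusted p = 3.00e-05) in W/F, and in F/F the livers with T0901317 measured 31.9, 23.3, 60.3 and 36.5 TPM. The response did not differ by the test between W/F and W/W (-0.10, limma adjusted p = 0.865), which does not show that it was the same. Gstt2 rose in W/W from 85.8 ± 19.7 to 222 ± 18.5 TPM (1.39, limma adjusted p = 5.83e-05), and Gstt1 in W/F from 188 ± 21.1 to 357 ± 50.2 TPM (0.92, limma adjusted p = 1.06e-04). In W/W the Mu-class genes Gstm2 (2.02, limma adjusted p = 6.43e-07), Gstm6 (0.97, limma adjusted p = 5.38e-04) and Gstm7 (0.57, limma adjusted p = 0.00238) also rose. Among the genes that were lower in mutants on vehicle, Mgst1 measured 4065, 3301, 3411 and 3360.2 TPM in W/F with T0901317 and 2025, 2237, 2514 and 2526 TPM in F/F, and Gstz1 measured 866, 769, 763 and 819 TPM and 536, 518, 643 and 518 TPM. Each group lay above the vehicle livers of its genotype, with rises in W/F of 0.72 (limma adjusted p = 3.41e-07) for Mgst1 and 0.68 (limma adjusted p = 1.37e-07) for Gstz1, and in F/F of 0.47 and 0.41. Mgst3 and Gstm5 fell in W/F (-1.18 and -1.03, and for Mgst3 -0.59 with limma adjusted p = 0.107 after rescaling), and with T0901317 Mgst3 measured 45.4, 50.4, 26.8 and 28.2 TPM and Gstm5 12.5, 16.2, 11.9 and 12.3 TPM there. Gsta4 fell in W/F as well, with 186, 201, 179 and 160.5 TPM (-0.86, limma adjusted p = 0.00503), and on the rescaled values its change was -0.26 (limma adjusted p = 0.410).

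**Figure D2:**
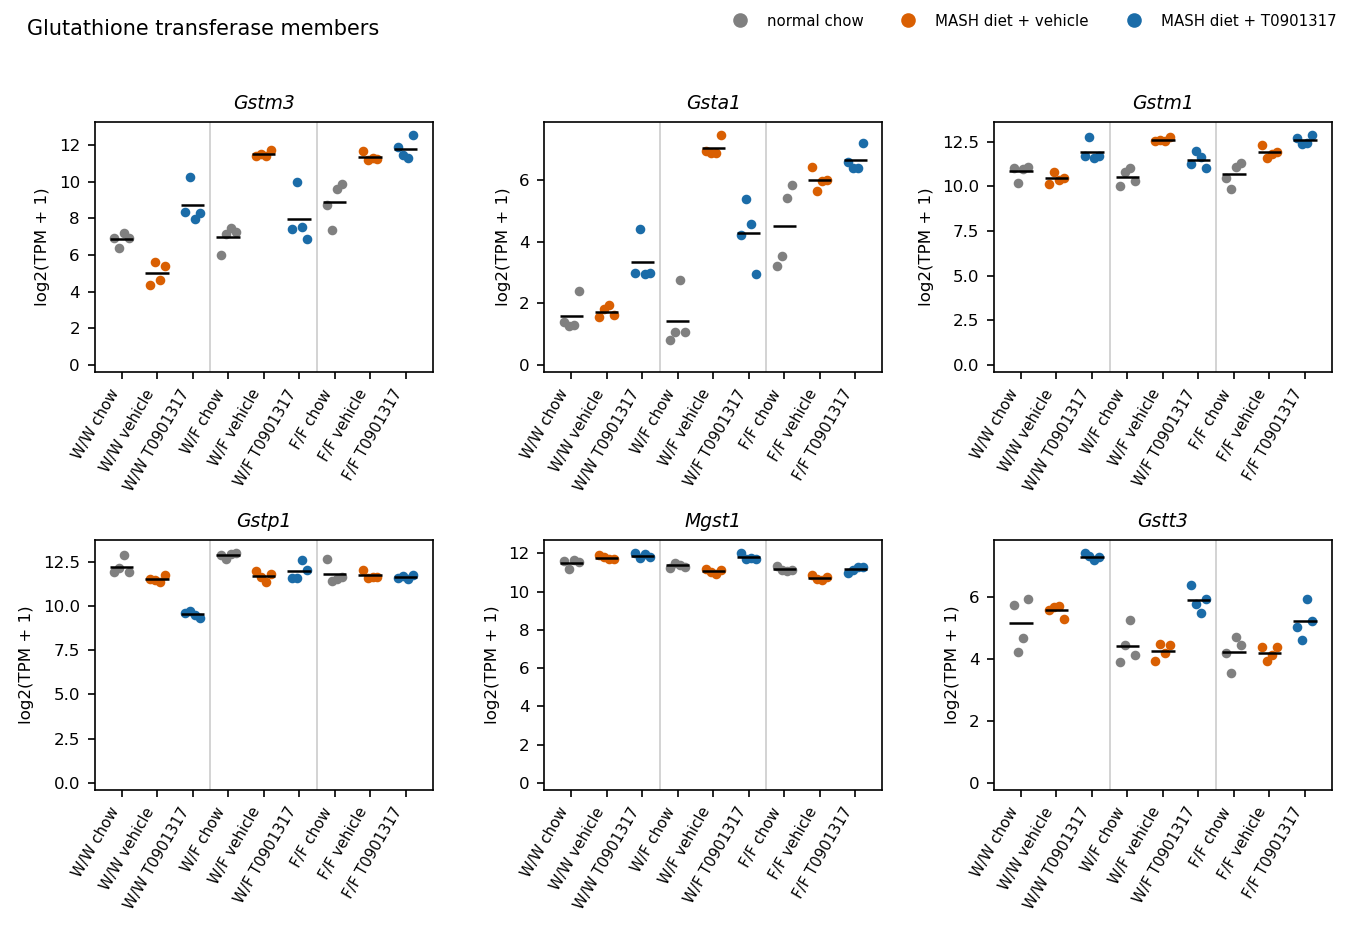
Level of 6 glutathione transferase genes in each liver, as log2(TPM + 1), by genotype and treatment (points are livers, 4 a group, bars are group means). Gstm3, Gsta1 and Gstm1 are lower in W/W vehicle livers (orange, left) than in W/F and F/F vehicle livers. Their means in W/W vehicle livers are 33.3, 2.35 and 1415 TPM, so Gstm1 is abundant there too. In W/F livers all of them are lower with T0901317 (blue), while Gstp1 is lowest in W/W livers with T0901317, at 647 to 829.9 TPM.

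With T0901317 in all groups, F/F livers still differed from W/W in many members and W/F livers in fewer. In F/F against W/W, 14 members rose and 18 fell (56.3% and 6.96% of all genes), and after rescaling 10 and 29 (24.4% and 22.4%). In W/F against W/W, 8 rose and 9 fell (3.65% and 6.23%), and after rescaling 7 and 9 (5.10% and 8.38%). The share of members called in W/F against W/W exceeded the share of all genes in each direction, whereas for the rises in F/F it was below. Gstp1, at 737 TPM in W/W, 4118 in W/F livers and 3156 in F/F livers, was higher in both mutants (2.43, limma adjusted p = 1.44e-09, and 2.10, limma adjusted p = 4.57e-09). Gstt3 was lower in both, by -1.40 and -2.09. Gstm3 and Gsta1 were higher in F/F (3.07 and 3.33), and in W/F they were not called (-0.77, limma adjusted p = 0.428, and 0.95, limma adjusted p = 0.256). Gstm2 was lower in W/F than in W/W (-1.83, limma adjusted p = 2.87e-06), with livers at 51.7, 103, 40.5 and 33.4 TPM against 202, 277, 132 and 163 TPM and no overlap.

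Among the UGT genes in F/F against W/W on vehicle, 11 of 17 tested fell, and Ugt2b1, Ugt1a5 and Ugt2b38 fell most. The Ugt2 and Ugt3 genes are given first. Ugt2b1 (chr5:86916638-86926530, minus strand) measured 594, 535, 485 and 579 TPM in W/W vehicle livers, 129, 151, 123 and 136 in W/F livers and 46.4, 32.3, 44.1 and 54.4 in F/F livers. The 3 genotypes did not overlap, and the level fell from W/W through W/F to F/F. The log2 fold change was -3.62 ± 0.19 (SE, limma adjusted p = 7.77e-16) in F/F and -2.02 ± 0.19 (SE, limma adjusted p = 2.50e-10) in W/F, or -4.46 and -2.68 after rescaling, and the ratio of mean TPM was 12.4 for W/W over F/F. Ugt3a1, whose family uses sugars other than glucuronic acid, measured 35.2, 54.4, 46.6 and 40.6 TPM in W/W, 13.7, 15.8, 15 and 17.7 in W/F livers and 9.63, 14.2, 10.1 and 9.80 in F/F livers, and Ugt3a2 measured 254, 242, 271 and 269.6, 131, 141, 138 and 146 and 134, 124, 109 and 111 TPM in the same order. In both, every mutant liver was below every W/W liver, with -1.92 (limma adjusted p = 3.89e-11) and -1.12 (limma adjusted p = 1.60e-10) in F/F. Ugt2b38 measured 8.51, 8.99, 10.9 and 11.0 TPM in W/W, 0.969, 0.435, 0.615 and 0.489 in W/F livers and 0.361, 1.77, 0.663 and 0.821 in F/F livers. It fell, with log2 fold changes of -2.55 and -2.74 (limma adjusted p = 1.83e-04 and 1.03e-04), with 28.0% of its 75-base stretches shared with other transcripts. Ugt2a3 went from 256 ± 27.1 TPM in W/W to 127 ± 12.4 TPM in W/F livers and 67.1 ± 8.25 TPM in F/F livers (-1.92, limma adjusted p = 4.86e-12). The abundant Ugt2b5 and Ugt2b36 changed less, from 891 ± 71.6 to 535 ± 62.4 TPM (-0.74, limma adjusted p = 5.65e-05) and from 629.6 ± 31.6 to 372 ± 37.6 TPM (-0.76, limma adjusted p = 1.07e-06).

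Not every Ugt2b gene fell. Ugt2b34 measured 207, 235, 210.2 and 236 TPM in W/W vehicle livers, 272, 264, 237 and 237 in W/F livers and 232, 276, 218 and 224 in F/F livers, and the F/F and W/W livers overlapped (0.09, limma adjusted p = 0.583). After rescaling it was called lower in F/F, with -0.76 (limma adjusted p = 2.08e-05). Ugt2b35 measured 108, 127, 121 and 131 TPM in W/W, 174, 219, 214 and 199 in W/F livers and 141, 172, 154 and 169 in F/F livers. It was higher in W/F and F/F than in all W/W livers (in W/F by 0.72, limma adjusted p = 4.39e-04, and 0.07, limma adjusted p = 0.735, after rescaling), but the F/F change of 0.38 lost its call without W/W vehicle replicate 1 (0.33), 2 (0.41) or 3 (0.38) or F/F vehicle replicate 2 (0.34), 3 (0.40) or 4 (0.35), and turned to -0.47 (limma adjusted p = 0.00729) after rescaling. The minor Ugt2b37 was at 1.61 and 1.88 TPM (0.06, limma adjusted p = 0.907). The share of Ugt2b1 in the summed UGT level was 16.6% in W/W vehicle livers and 2.54% in F/F, while that of Ugt2b34 was 6.73% and 13.6%. A comparison of shares within a class does not depend on the scaling of the liver.

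The Ugt1a genes, which lie in 1 locus with alternative first exons, went in both directions. Ugt1a1 measured 196, 262, 225 and 222 TPM in W/W vehicle livers, 109.8, 157, 136 and 114 in W/F livers and 94.4, 85.4, 89.1 and 126 in F/F livers, with all mutant livers below all W/W livers (-1.20, limma adjusted p = 3.58e-07, and -0.81, limma adjusted p = 1.55e-04). Ugt1a5 measured 10.1, 33.1, 23.9 and 9.81 TPM in W/W, 1.28, 3.36, 3.01 and 2.52 in W/F livers and 0.981, 0.470, 0.880 and 1.17 in F/F livers, with log2 fold changes of -3.27 in F/F and -2.38 in W/F (limma adjusted p = 2.20e-10 and 1.86e-07). Ugt1a9, by contrast, measured 9.28, 15.1, 9.15 and 6.91 TPM in W/W, 48.9, 65.2, 81.9 and 108 in W/F livers and 49.4, 68.3, 58.5 and 43.2 in F/F livers. Its mutant livers were all above the W/W livers, by 2.36 (limma adjusted p = 1.14e-08) in F/F and 2.78 (limma adjusted p = 1.07e-09) in W/F, and by 1.54 and 2.16 after rescaling. Ugt1a6b, an enzyme for planar phenols, went from 45.0 ± 5.18 to 27.7 ± 3.26 TPM in F/F (-0.68, limma adjusted p = 1.49e-05). Ugt1a6a fell (-0.37, limma adjusted p = 0.0363) and the scarce Ugt1a7c rose by 1.26, from 0.510 to 2.65 TPM. These genes differ mainly in the first exon, and reads in the exons they share make each value uncertain. On chow, Ugt1a9 was already higher in F/F, with 167, 163, 231 and 219 TPM against 59.3, 46.4, 25.8 and 40.7 TPM in W/W (2.20, limma adjusted p = 5.11e-07), and Ugt1a5 lower, with 6.68, 3.89, 8.55 and 6.89 TPM against 48.5, 26.8, 16.6 and 44.8 TPM (-2.15, limma adjusted p = 4.91e-06). Neither pair of chow groups overlapped. Ugt2b1 on chow measured 299.8, 239.9, 211 and 241 TPM in F/F livers, and 529, 526, 585 and 543 TPM in those of W/W, also without overlap (-1.15, limma adjusted p = 2.21e-05).

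With T0901317, Ugt1a5 and Ugt1a9 rose in W/W livers. In F/F all Ugt1a5 livers with T0901317 also lay above all vehicle livers, at lower levels. The Ugt1a9 livers of F/F with T0901317 were mostly higher than those on vehicle, with overlap. Of the 10 Ugt2 and Ugt3 genes tested, Ugt2a3, Ugt2b1, Ugt2b5, Ugt3a1 and Ugt3a2 rose in both W/F and F/F, Ugt2b38 rose in W/F and Ugt2b36 in F/F, Ugt2b37 fell in W/F (-1.03, limma adjusted p = 0.0437), and Ugt2b34 and Ugt2b35 were called in neither on the deposited scale. Ugt1a5 measured 138, 178, 140.2 and 154 TPM in W/W with T0901317, above the vehicle livers by 3.10 ± 0.32 (SE, limma adjusted p = 4.37e-08), and 6.26, 3.46, 3.69 and 5.52 TPM in W/F livers and 3.88, 2.28, 2.78 and 2.13 TPM in F/F livers. The response was smaller in W/F by -2.39 (limma adjusted p = 5.74e-05) and in F/F by -2.10 (limma adjusted p = 0.00119), and with T0901317 the ratio of mean TPM in W/W over F/F was 55.2. Ugt1a9 measured 80.9, 55.7, 87.7 and 54.2 TPM in W/W (2.69 ± 0.28, SE, limma adjusted p = 5.91e-08), 31.8, 56.3, 59.5 and 27.5 TPM in W/F livers and 62.0, 82.2, 111 and 132 TPM in F/F livers. Under T0901317 the W/W livers overlapped both mutant groups, and the response differed from W/W by -3.48 (limma adjusted p = 3.86e-08) in W/F and -1.91 (limma adjusted p = 8.62e-04) in F/F. Ugt2b1 measured 669, 382, 612 and 533 TPM in W/W with T0901317, 389, 288, 576 and 575 in W/F livers and 121, 174, 196 and 182 in F/F livers. It overlapped vehicle in W/W and lay above all vehicle livers in W/F and F/F, by 1.70 ± 0.19 (SE, limma adjusted p = 1.07e-08) and 1.90 ± 0.19 (SE, limma adjusted p = 1.99e-08). In F/F with T0901317 it was below every W/W liver (-1.69, limma adjusted p = 1.72e-08), and in W/F it overlapped W/W (-0.29, limma adjusted p = 0.405). Ugt3a1 with T0901317 measured 32.5, 33.3, 44.3 and 37.6 TPM in W/W, 34.6, 30.3, 44.6 and 41.9 in W/F livers and 17.7, 16.1, 29.8 and 21.7 in F/F livers, and rose against vehicle in W/F (1.22, limma adjusted p = 5.56e-07) and F/F (0.88, limma adjusted p = 4.73e-04). Ugt3a2 measured 197, 165, 221 and 176 TPM, 226, 198, 275 and 263 TPM and 138, 161, 205 and 179.8 TPM in the same order, a fall in W/W (-0.46, limma adjusted p = 0.00465) and a rise in W/F (0.78) and F/F (0.50).

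Ugt1a1 measured 266, 244, 297 and 268 TPM in W/W livers with T0901317, 252, 260.2, 307 and 334 in W/F livers and 140.4, 146, 226 and 147 in F/F livers. It rose in W/F by 1.16 (limma adjusted p = 1.33e-06) and in F/F by 0.72 (limma adjusted p = 0.00266), and in W/W the change was 0.25 (limma adjusted p = 0.438). Ugt2b38 rose in W/F, to 4.21, 0.984, 9.56 and 7.74 TPM (1.78, limma adjusted p = 0.00718), and in F/F the change was 0.05 (limma adjusted p = 0.957). Ugt2a3 rose in W/F (0.96, limma adjusted p = 4.77e-06) and F/F (1.13, limma adjusted p = 6.98e-06), from 127 to 249 TPM and from 67.1 to 149 TPM. Ugt2b5 rose by 0.51 and 0.51 in W/F and F/F, and Ugt2b36 by 0.57 in F/F. Ugt2b34 was highest in W/W with T0901317, at 334, 284, 375 and 336 TPM (0.58, limma adjusted p = 0.0108), the only Ugt2b gene called up in W/W. In F/F, then, 11 of 17 UGT genes tested rose with T0901317 and only Ugt1a7c fell (-0.58, limma adjusted p = 0.0143, and -0.37, limma adjusted p = 0.164, after rescaling), against the 3.95% of all genes that rose on the deposited scale.

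**Figure D3:**
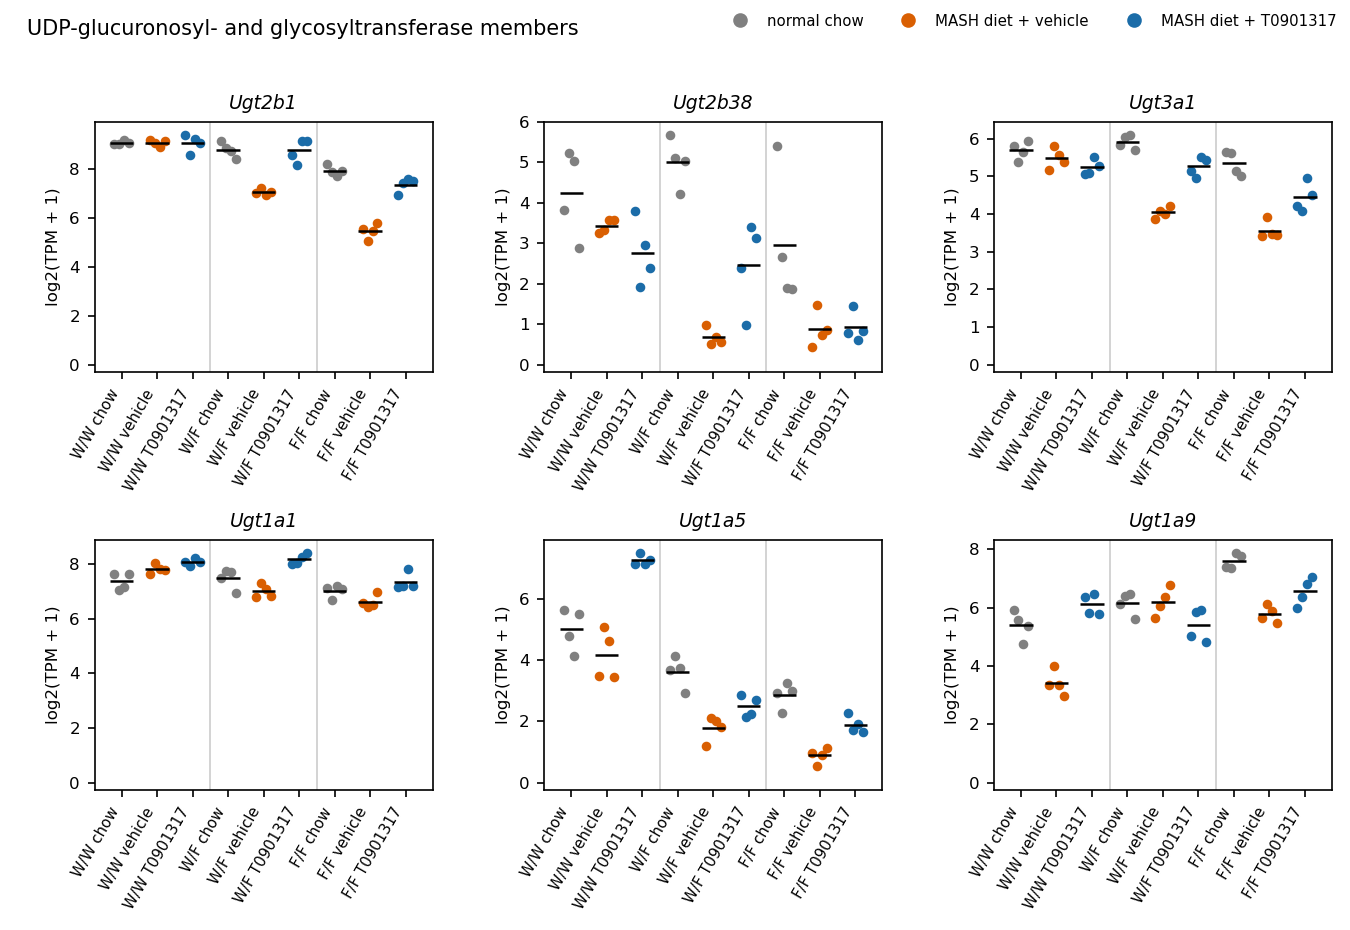
Level of 6 UDP-glycosyltransferase genes in each liver, as log2(TPM + 1), by genotype and treatment (points are livers, 4 a group, bars are group means). Ugt2b1 steps down from W/W to F/F on vehicle (orange), with group means of 548, 135 and 44.3 TPM, and Ugt1a5 is high with T0901317 (blue) in W/W livers, at 138 to 178 TPM.

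Sult2a8 (chr7:14410686-14446769, minus strand), the most abundant sulfotransferase of W/W livers, gave the greatest fall of any member. On vehicle it measured 600.2, 573, 493 and 651 TPM in W/W, 18.6, 17.3, 8.57 and 11.1 in W/F livers and 3.88, 3.51, 3.33 and 5.39 in F/F livers. The 3 genotypes were separate, in the order W/W, W/F, F/F. The log2 fold change was -6.86 ± 0.30 (SE, limma adjusted p = 1.99e-17) in F/F and -5.34 ± 0.30 (SE, limma adjusted p = 1.71e-14) in W/F, and the ratio of mean TPM was 144 for W/W over F/F and 41.8 for W/W over W/F. Its share of the summed SULT level was 49.9% in W/W vehicle livers, 2.64% in W/F and 0.850% in F/F, where Sult1a1 held 77.1%. On chow Sult2a8 measured 685, 552, 542 and 639 TPM in W/W, 808, 715, 639 and 465 in W/F livers and 459, 263, 194 and 204 in F/F livers, so only F/F was below all W/W livers (-1.19, limma adjusted p = 0.00196), and W/F overlapped W/W (0.10, limma adjusted p = 1.00). With T0901317 it measured 392, 257, 479 and 416 TPM in W/W, 525, 406, 616 and 695 in W/F livers and 20.8, 40.3, 87.6 and 29.0 in F/F livers. The agonist group lay above all vehicle livers in W/F (5.27 ± 0.30, SE, limma adjusted p = 8.52e-14) and in F/F (2.99 ± 0.30, SE, limma adjusted p = 2.05e-08), and W/W, all of whose agonist livers were below the vehicle livers, was not called (-0.61, limma adjusted p = 0.220). W/F livers with T0901317 overlapped those of W/W and lay above all F/F livers (0.54, limma adjusted p = 0.302, and -3.26, limma adjusted p = 4.84e-10 against W/W). The response differed from W/W by 5.88 (limma adjusted p = 2.05e-11) in W/F and by 3.6 (limma adjusted p = 5.57e-07) in F/F.

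Other sulfotransferases moved with smaller amplitude. Sult1b1, which acts on thyroid hormone, measured 20.8, 18.7, 16.3 and 23.3 TPM in W/W vehicle livers, 7.44, 9.18, 7.53 and 8.75 in W/F livers and 7.77, 5.22, 4.84 and 7.22 in F/F livers, with all mutant livers below all W/W livers (-1.53, limma adjusted p = 3.73e-06, and -1.16, limma adjusted p = 2.05e-04). With T0901317 it was 19.9, 16.4, 16.4 and 20.8 TPM in W/F, above all vehicle livers (1.07, limma adjusted p = 5.88e-04). In F/F it was also called higher with T0901317, without overlap, at means of 6.26 TPM on vehicle and 11.65 TPM with T0901317. Sult1d1 measured 221, 175, 185 and 207 TPM in W/W, 169, 164, 169 and 127 in W/F livers and 82.5, 90.2, 69.1 and 92.8 in F/F livers on vehicle. F/F lay below the other 2 genotypes (-1.23, limma adjusted p = 8.63e-06), and W/F was called only after rescaling (-0.33, limma adjusted p = 0.187, and -0.98, limma adjusted p = 3.79e-04, rescaled) though all 4 W/F livers were below all W/W livers. Sult1a1, the main phenol sulfotransferase, did not differ by the test on the deposited scale, at 354 ± 41.7 TPM in W/W and 365 ± 71.6 TPM in F/F (0.03, limma adjusted p = 0.897), and was called lower after rescaling (-0.82, limma adjusted p = 0.00174). Sult5a1 measured 3.53, 3.87, 2.96 and 6.76 TPM in W/W, 1.66, 0.399, 0.50 and 1.05 in W/F livers and 0.823, 0.417, 0.542 and 0.234 in F/F livers, and Sult2a7 measured 2.10, 2.61, 2.68 and 1.92, 0.0597, 0.184, 0.273 and 0.161 and 0.267, 0, 0 and 0 TPM in the same order. Both were below all W/W livers in the mutants, by -1.78 (limma adjusted p = 9.45e-05) and -1.64 (limma adjusted p = 2.71e-06) in F/F, at levels where 3 reads of Sult2a7 make 0.171 to 0.322 TPM, so that its F/F livers were at the limit of detection. In W/F, livers with T0901317 had Sult5a1 at 6.13, 9.48, 11.6 and 11.6 TPM (2.51, limma adjusted p = 1.24e-06) and Sult2a7 at 5.68, 2.18, 1.52 and 1.12 TPM (1.48, limma adjusted p = 2.09e-05). The response of Sult5a1 differed from that of W/W by 3.46 (limma adjusted p = 3.32e-06) in W/F and 1.84 (limma adjusted p = 0.0104) in F/F, W/W livers with T0901317 being at 1.40, 1.30, 2.48 and 1.53 TPM.

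The low sulfotransferases Sult1e1, Sult2a1 and Sult2a2 had their highest levels in 1 T0901317 group each, W/W for Sult1e1 and F/F for the Sult2a genes, and lower levels in other groups. Sult1e1, which inactivates estrogens, was at 0 in all 4 W/W chow livers, where 3 reads make 0.176 to 0.332 TPM. It measured 0.831, 0.163, 0.811 and 0.158 TPM in W/W on vehicle and 3.40, 1.83, 2.26 and 2.16 TPM with T0901317, a rise of 1.21 ± 0.17 (SE, limma adjusted p = 5.04e-06). In W/F it was 1.04, 1.14, 2.15 and 1.57 TPM on vehicle and 0.641, 0.524, 0 and 0.230 TPM with T0901317, a change of -0.88 (limma adjusted p = 3.32e-05), and in F/F 0.458, 0.278, 0.276 and 0.250 and 0.176, 0.197, 0.456 and 0.297 TPM, with overlap. The response differed from W/W by -2.09 (limma adjusted p = 2.53e-08) in W/F and -1.25 (limma adjusted p = 2.86e-04) in F/F. Sult2a2 and Sult2a1, hydroxysteroid sulfotransferases that are higher in female mouse liver, were at 18.3, 3.97, 58.8 and 29.6 TPM and 2.07, 0.36, 19.0 and 5.60 TPM in F/F with T0901317 and at or near 0 in all W/W livers. Their livers with T0901317 varied widely, and the 2 genes share sequence. Against vehicle (0.921, 0.777, 3.85 and 7.40 TPM), Sult2a2 gave 2.58, and 3.26 without F/F T0901317 replicate 2, and Sult2a1 gave 1.53, 2.14 without replicate 2 and 0.84 without replicate 3. Female-biased liver markers summed to 7.75 to 10.7 TPM in F/F vehicle livers and 6.54 to 33.6 TPM with T0901317, against 26.0 to 32.1 TPM in W/W with T0901317, and their part in the Sult2a levels was not tested. Sult1c2 had group means of 2.52 to 10.4 TPM and rose in F/F against W/W on vehicle by 0.81 (limma adjusted p = 0.00154), which rescaling reduced to 0.09.

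**Figure D4:**
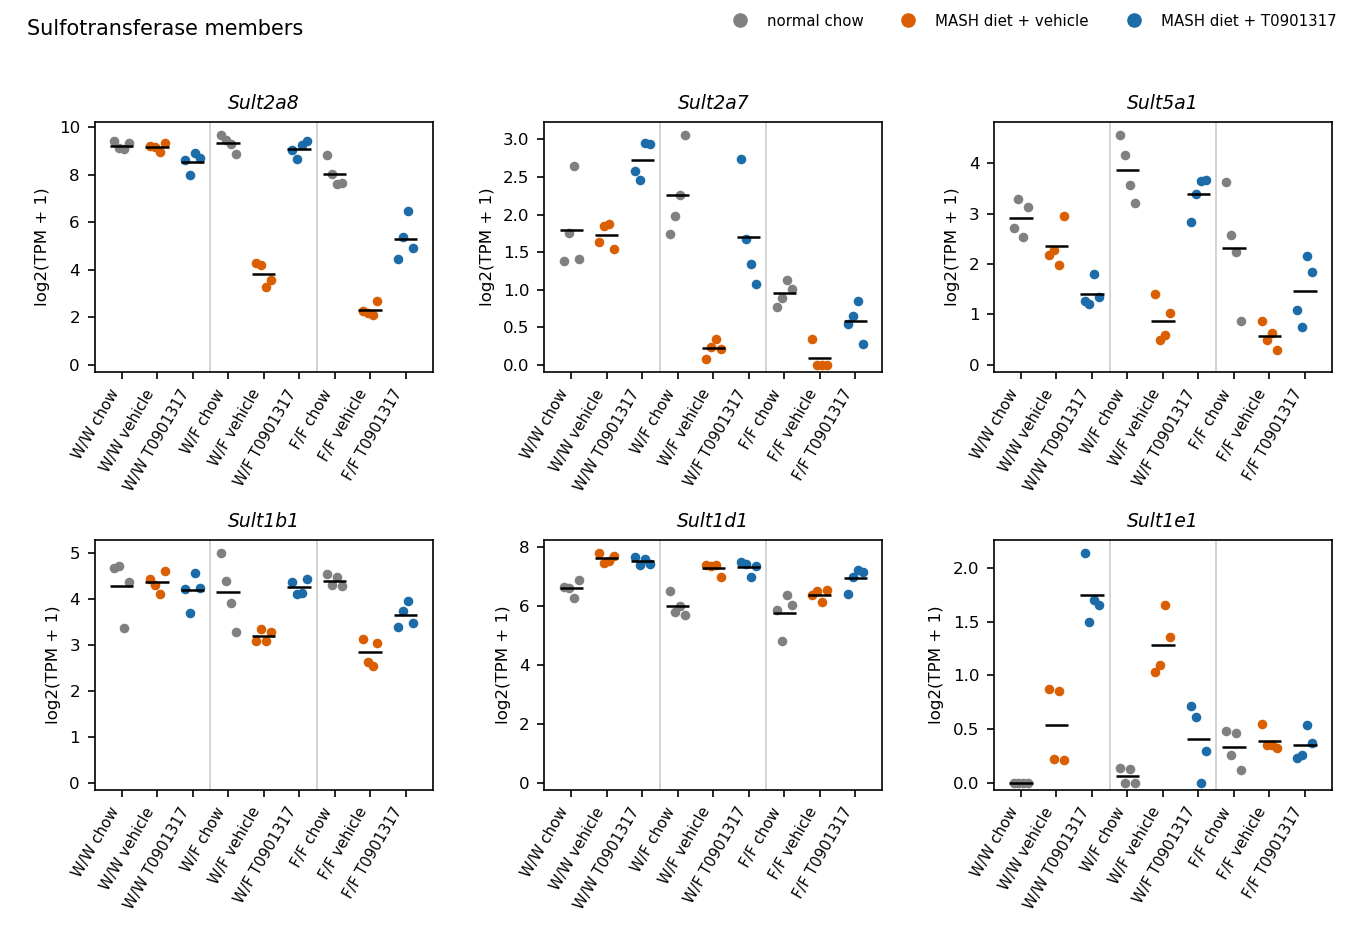
Level of 6 sulfotransferase genes in each liver, as log2(TPM + 1), by genotype and treatment (points are livers, 4 a group, bars are group means). Sult2a8 is at 493 to 651 TPM in W/W vehicle livers and at 3.33 to 5.39 TPM in F/F vehicle livers, and in W/F livers with T0901317 (blue) it is at 406 to 695 TPM.

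MASH diet with vehicle against chow gave fewer calls in W/W livers than in W/F and F/F, among the members as among all genes. In W/W, 2 members rose and 7 fell (2.59% and 10.3% of all genes), and after rescaling 4 and 4 (7.00% and 8.42%). The W/W total of 9 calls dropped to 5 when W/W chow replicate 2 was left out, to 3 for W/W vehicle replicate 1 and to 5 for W/W vehicle replicate 3. In W/F, 16 rose and 18 fell (52.4% and 8.53%), and after rescaling 13 and 26 (28.0% and 26.8%). In F/F, 14 rose and 18 fell (46.5% and 9.27%), and after rescaling 9 and 25 (25.9% and 21.1%). GST genes gave 11 up and 4 down in W/F and 10 and 3 in F/F, and UGT genes 1 and 10 in W/F and 1 and 11 in F/F. After rescaling GST genes gave 9 up and 7 down in W/F and 7 and 5 in F/F, and UGT genes 1 and 15 in each. A diet response other than that of W/W was called for 33 members in W/F (54.6% of all genes, 40.0% rescaled) and 23 in F/F (46.0% and 26.9%). The W/F and F/F differences share the W/W chow and vehicle livers, and every diet comparison is also one of cohorts and of gavage.

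Gstm3 went down with the diet in W/W, from 119, 82.2, 144 and 120.3 TPM to 19.8, 48.1, 24.2 and 41.2 TPM (-1.83), and up in W/F and F/F, with values given above. The W/W call was lost without W/W vehicle replicate 1 (-1.62) or 3 (-1.71), but none of these pairs of groups overlapped. The response differed from W/W by 6.39 (limma adjusted p = 5.09e-08) in W/F and 4.29 (limma adjusted p = 4.61e-05) in F/F. Gsta1 rose in W/F by 5.62 (limma adjusted p = 4.17e-11), with a difference from W/W of 5.46 (limma adjusted p = 2.03e-07). Gstm1 rose by 2.07 in W/F livers and 1.22 in F/F livers, and in W/W its change was -0.39 (limma adjusted p = 0.421), so its diet response differed from W/W by 2.45 (limma adjusted p = 7.48e-06) and 1.61 (limma adjusted p = 0.00168). Gstp1 fell in W/W, from 3897, 4549, 7482 and 3826 TPM on chow to 2984, 2865, 2614 and 3459.9 TPM on vehicle, without overlap (-0.68, limma adjusted p = 0.0385). That call was lost after rescaling (-0.55, limma adjusted p = 0.0998) and without W/W chow replicate 2 (-0.70) or 3 (-0.46) or W/W vehicle replicate 1 (-0.68), 2 (-0.66) or 3 (-0.62). Gstp1 also fell in W/F, from 7573, 6428, 7649 and 7992 TPM on chow to 3999, 3191, 2642 and 3623 TPM on vehicle (-1.15, limma adjusted p = 4.22e-05), without overlap. Gstp2 measured 28.6, 36.6, 31.6 and 151 TPM on chow in W/F livers and 64.7, 21, 28.6 and 60.9 TPM in F/F livers, where its diet response was 1.68 (limma adjusted p = 0.00237). Sult2a8 did not change by the test in W/W (-0.06, limma adjusted p = 0.948) and fell in W/F (-5.5) and F/F (-5.73), and the difference from W/W was -5.44 (limma adjusted p = 1.61e-10) and -5.67 (limma adjusted p = 1.36e-10). Sult1d1 rose in W/W from 99.1, 98.3, 75.9 and 118 TPM to 221, 175, 185 and 207 TPM (1.01, limma adjusted p = 0.00235) and in W/F from 89.6, 54.7, 63.2 and 51.5 TPM (1.29, limma adjusted p = 7.70e-06), in each case without overlap. Ugt1a9 fell in W/W to the lowest level of any group (-1.98, limma adjusted p = 2.70e-05) and in F/F (-1.82, limma adjusted p = 3.44e-06), and was not called in W/F (0.06, limma adjusted p = 0.859). Ugt2b38 fell in W/F from 49.8, 33.5, 17.5 and 31.6 TPM on chow (-4.31, limma adjusted p = 1.41e-07), and Sult5a1 fell there from 22.4, 16.8, 10.8 and 8.26 TPM (-2.99, limma adjusted p = 5.73e-08). Ugt2b1, Ugt3a1 and Ugt3a2 fell in W/F, with -1.72, -1.87 and -1.11, and in F/F, with -2.47, -1.80 and -1.22, while in W/W they gave 0.00, -0.21 and 0.01 without a call.

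**Figure D5:**
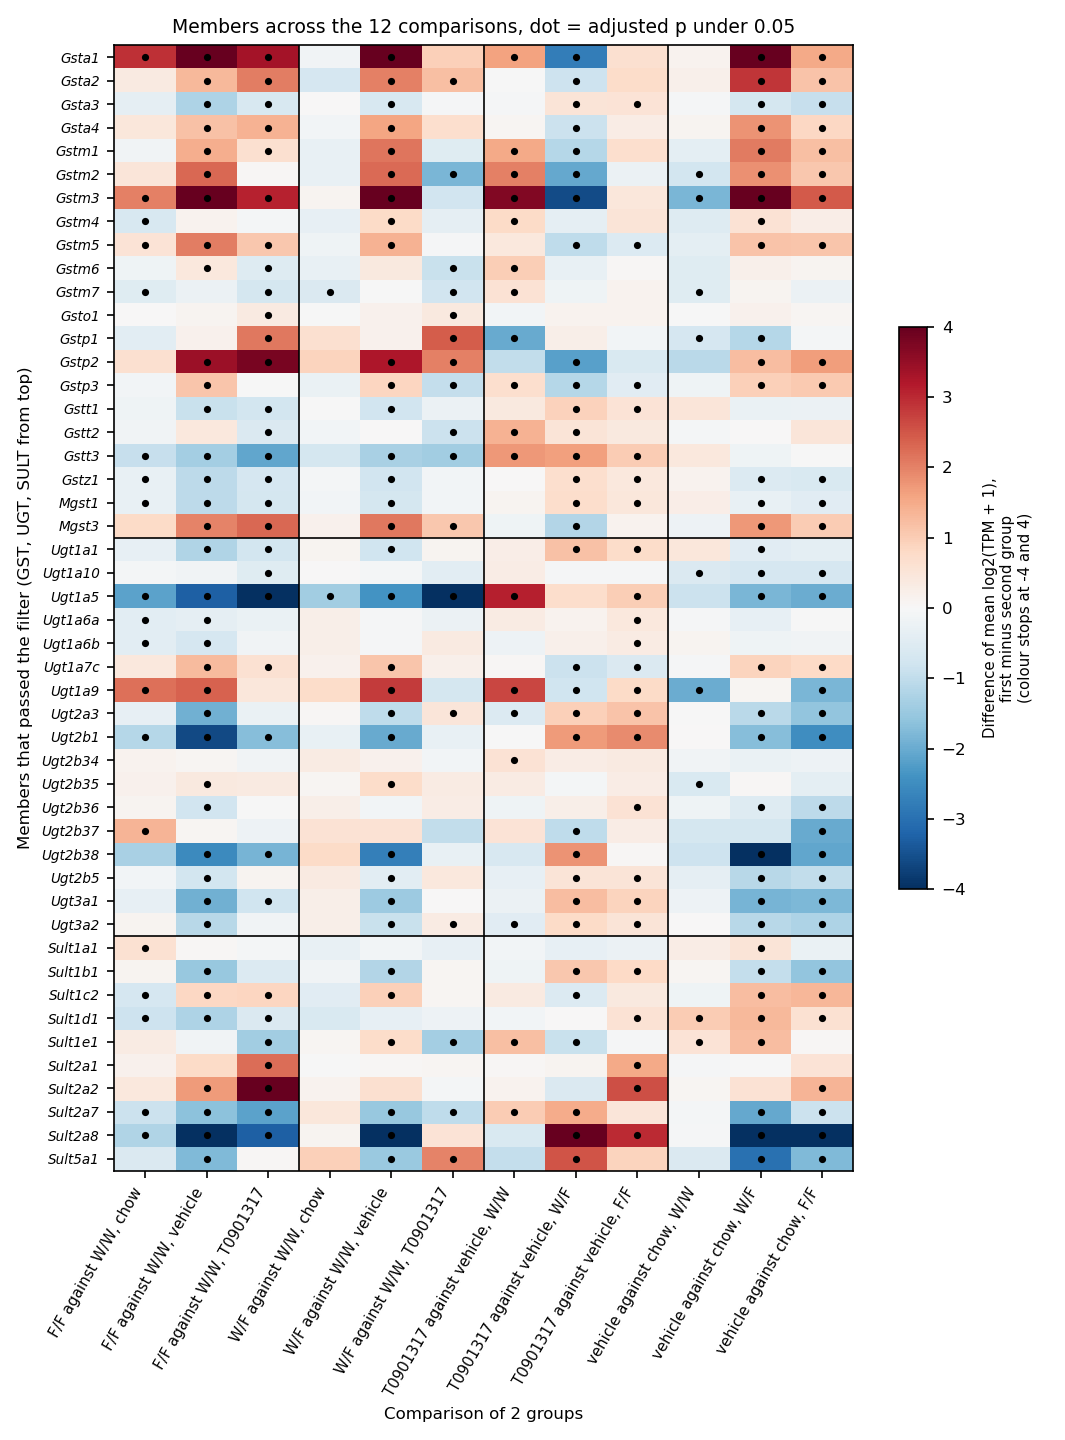
Log2 fold change of the 48 members tested (lines of the map, GST at the top, then UGT, then SULT) in the 12 comparisons of 2 groups (columns), as the difference of mean log2(TPM + 1), with colour stopping at -4 and 4 and a dot where the limma adjusted p is under 0.05. In the columns of F/F and W/F against W/W on vehicle most GST genes are red and most UGT genes blue. The share of GST genes called up there was below that of all genes (69.3% in F/F and 61.6% in W/F). After rescaling, 7 GST genes were called up and 10 down in F/F. In the column of T0901317 against vehicle in W/F the colours of Gstm3 (-3.57) and Sult2a8 (5.27) point the opposite way.

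The genes that supply and complete conjugation were taken from lists of pathway genes, and F/F against W/W on vehicle is given for each, with the shares of all genes called there as above. Glutathione synthesis and recycling genes gave 11 up and 5 down of 17 tested (6 and 8 rescaled). The cystine carrier Slc7a11 (2.17, 1.76 rescaled) and glutathione synthetase Gss (1.59, 0.74 rescaled) rose on both scales, and Gclc, the catalytic part of the rate-limiting ligase, was at 0.81 (limma adjusted p = 0.0201) on the deposited scale and -0.05 on the rescaled one. UDP-glucuronic acid supply gave 2 up and 2 down of 5 tested (1 and 3 rescaled), with the UDP-glucose dehydrogenase Ugdh at 1.41 (limma adjusted p = 1.26e-08). Sulfate and PAPS supply gave 4 up and 2 down of 8 tested (0 and 4 rescaled), and sulfite oxidase Suox fell (-1.25, limma adjusted p = 1.82e-12). Efflux pumps gave 6 up and 2 down of 9 tested (5 and 3 rescaled), and Abcc4, a basolateral pump of conjugates, rose (1.95, limma adjusted p = 3.39e-07, 1.38 rescaled). Of 4 hydrolases listed as removing glucuronic acid or sulfate (Gusb, Sts, Arsa and Arsb), 3 were found in the expression table. These gave 3 up and 0 down (1 and 0 rescaled). Only the beta-glucuronidase Gusb, which removes glucuronic acid, rose on both scales (2.22, limma adjusted p = 3.50e-15, 1.39 rescaled). Conjugating enzymes of other classes gave 1 up and 12 down of 14 tested (0 and 13 rescaled): the methyltransferases Inmt (-6.40, limma adjusted p = 2.61e-15) and Gnmt (-1.46, limma adjusted p = 3.89e-10) were among those that fell. GST-like genes outside the named families gave 5 up and 1 down of 8 tested (4 and 1 rescaled).

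Regulators gave 9 up and 5 down of 20 tested (2 and 11 rescaled), so that their direction depends on the scale. Nfe2l2, which encodes NRF2, was at 1.08 (limma adjusted p = 1.36e-08) on the deposited scale and 0.24 on the rescaled one. Genes that report on these regulators gave 5 up and 2 down of 9 tested (4 and 2 rescaled). Srxn1 (2.79, limma adjusted p = 1.47e-09, 1.94 rescaled), Nqo1 (2.44, limma adjusted p = 8.18e-09, 1.64 rescaled) and Hmox1 (2.64, limma adjusted p = 5.88e-09), which respond to NRF2, were among those that rose. The rest of this list was Txnrd1, Cyp1a1, Cyp1a2, Cyp1b1, Cyp2b10 and Cyp3a11, and the 2 falls were among these. The part of any regulator, or of the macrophage marker shift given above, in these changes was not tested. Nqo1 and Srxn1 were at 7.56 and 29.3 TPM in W/W vehicle livers and at 45.2 and 206 TPM in F/F. Pericentral hepatocyte markers, the zone in which several conjugating enzymes are highest, summed to 11443 to 13090.2 TPM in W/W vehicle livers and 1699.6 to 3723 TPM in F/F, and their part in the falls of the UGT and SULT genes was not tested. As examples of these lists in W/W livers with the agonist, Papss2, a PAPS synthase, rose (1.02, limma adjusted p = 0.00151) and the methyltransferase Nnmt fell (-2.67, limma adjusted p = 3.29e-06). There 7.87% of all genes rose and 2.91% fell. Counts for the lists under T0901317 are not given here for any genotype.

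Across all 36 livers and 9225 genes with a mean of at least 5 TPM, the genes whose log2(TPM + 1) was most like that of Gstp1 by Pearson's r were Gstp-ps (0.961), Serpina1a (0.889), Vtn (0.826), Dexi (0.826) and Enho (0.818). Gstp-ps is a pseudogene copy of the same family, and its values may hold reads of Gstp1. For Sult2a8 they were Gm21320 (0.979), Ces3b (0.976), Mup3 (0.972), Sardh (0.970) and Mccc2 (0.968). These values describe likeness over libraries that share groups, depth and scaling, and carry no test.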

How the data were processed

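PolyA RNA of 36 mouse livers was sequenced, and the groups were taken from the genotype and treatment labels. The authors deposited 1 table of TPM (transcripts in each 1000000) for 49315 genes. Per the submitters' processing notes, Trimmomatic 0.36, STAR 2.5.2b and featureCounts of Subread 1.5.2 were used with GRCm38 (mm10), and how reads that fit several genes were counted is not given in the sources used here. Each column summed to 1e+06, and reads per library (18.0 to 35.8 M, of 1000000 each) were recovered from low TPM and GENCODE M21 exon lengths, with 93.7% to 95.7% of low values within 0.1 of a whole read, where chance gives 20%. Intervals and floors of 3 reads cover counting error only. From the TPM, log2(TPM + 1) was fitted with limma 3.58.1 (R 4.3.3), with 1 mean for each of 9 groups over 36 livers, a variance trend, and two-sided tests of 16 contrasts adjusted by Benjamini-Hochberg over 16638 genes that reached 1 TPM in 4 or more livers, at a threshold of 0.05. The fit was also run on simulated data in which few genes changed, in both directions, and the median gene did not shift. That run does not check the calls that depend on the scale. Rescaled TPM were divided by each liver's median ratio to the geometric mean over 13950 genes (factors 0.692 to 1.47). Neither scale can be checked without added standards. Named members had a group mean of at least 20 TPM or an absolute log2 fold change of at least 2 with a call. Per-liver values are given for the largest non-overlapping change of each family, at a mean of 5 TPM or more, and for 8 members chosen in addition, and outside that rule for Gstm2, Sult2a1 and Sult2a2. Ugt1a6a, Ugt1a7c and Sult1c2 are named outside that rule, after their values were seen. The members and lists were chosen with earlier results of these data known. Alternatives were a pseudocount of 0.1, a filter of 5 TPM, no filter, the compared groups alone, a replicate block, rescaling and leaving out each replicate. The labels do not say whether a replicate number marks a batch, and the main fit did not pair the livers. Deviations of same-numbered livers correlated from -0.174 to 0.297, and 18 of 144 pairs exceeded 0.1, which does not settle it. The replicate 1 libraries of W/W chow, W/W T0901317, W/F vehicle, F/F chow and F/F T0901317 had 29.1 to 35.8 M reads. The other replicate 1 libraries had 20.7 to 24.9 M, and the deepest library of another number had 27.6 M. Promoters are RefSeq sequences. Analyses used Python 3.11.15, numpy 2.4.6 and pandas 2.3.3, and figures matplotlib 3.10.9.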

Additional observations from a re-analysis of the deposited data

Results flagged for a closer look

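In 24 of 222 groups examined, 1 liver of 4 stood apart from the other 3 by Dixon's criterion, where chance gives about 1 in 20 groups. W/W T0901317 replicate 2 stood apart upwards for 4 GST genes, Gsta1 (20.4 TPM), Gstm1 (7059), Gstm3 (1230.4) and Mgst3 (29.3). W/F T0901317 replicate 2 stood apart upwards for Gstm3 (992 TPM) and Gstm5 (16.2), and its summed macrophage markers were at 1019 TPM where the lowest liver of that group had 158 TPM. W/F vehicle replicate 4 stood apart upwards for Gsta1 (176 TPM) and Gstm1 (6880.4) and downwards for Sult1d1 (127). F/F T0901317 replicate 3 stood apart upwards for Gstz1 (643 TPM) and Ugt1a1 (226), and without it the F/F response to T0901317 gave 14 calls where it gave 24 with it. On chow the livers apart were W/W replicate 4 for Gsta1 (4.29 TPM), W/W replicate 2 for Gstm1 (1177, the lowest), W/W replicate 3 for Gstp2 (81.2), W/F replicate 3 for Gsta1 (5.82), W/F replicate 4 for Gstp2 (151), F/F replicate 1 for Gstp1 (6422) and Ugt2b38 (41.1), and F/F replicate 2 for Ugt2b34 (178, the lowest). On the MASH diet the others were F/F vehicle replicate 1 for Gstp1 (4131 TPM), F/F vehicle replicate 2 for Ugt3a1 (14.2), F/F T0901317 replicate 4 for Gsta4 (344), F/F T0901317 replicate 1 for Ugt2b35 (160.2, the lowest) and W/F T0901317 replicate 1 for Mgst1 (4065). Responses that differed between genotypes by an interaction term in limma were also singled out: the T0901317 response differed from that of W/W for 32 members in W/F (58.5% of all genes) and 23 in F/F (30.4%), and the diet response for 33 members in W/F (54.6%) and, at a share of the 48 members near that of all genes (46.0%), for 23 in F/F livers.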

How the results depend on the processing

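Of 373 called differences of single members, 279 kept direction and call under every alternative run. The call was lost in 45 of 373 with rescaled TPM, 34 of 373 with only the compared groups fitted, 33 of 373 without a filter, 8 of 373 with a pseudocount of 0.1 and 0 of 360 with a filter of 5 TPM, and 68 lost it without some single replicate. Rescaling turned the sign of 4: Gstm6 (-0.42) and Ugt2b35 (-0.47) in F/F against W/W on vehicle, Gsto1 under T0901317 in F/F against W/W (-0.17) and Gstm7 in the diet response of W/F minus W/W (-0.046). The 2 scales make opposite assumptions about the total and the median gene. The count of members called in W/F against W/W on chow was 2, and 1 with a pseudocount of 0.1, 1 without a filter, 1 with the replicate block, 0 with only the compared groups fitted, and 0 to 2 when each replicate was left out. For vehicle against chow in W/W it was 9, then 4 with only the compared groups fitted and 3 to 9 with each replicate left out, and for T0901317 against vehicle in F/F 24, with 14 to 25. The cause was not tested. The replicate block moved no other count of calls by more than 1.5 times (37 in F/F against W/W on vehicle with and without it), and 11 of 36 livers correlated best with their own number. At the depth of these libraries, members near 3 reads cannot be compared, and single Ugt1a genes are limited by shared exons.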

Other observations

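Some sulfotransferases outside the 48 members tested were detected above 3 reads in some groups. Sult2b1, which sulfates cholesterol, measured 0.950, 0.845, 0.693 and 1.15 TPM in F/F vehicle livers and 0, 0.0513, 0.0255 and 0.149 TPM in W/W vehicle livers. Sult4a1, known mainly from brain, measured 0.525, 0.435, 0.574 and 0.651 TPM in F/F vehicle livers and 0, 0.0850, 0.0423 and 0 TPM in W/W. Sult3a1, a sulfotransferase that is higher in female mouse liver, measured 0.417, 1.34, 0.535 and 0.794 TPM in W/W livers with T0901317 and 0, 0, 0.192 and 0.188 TPM with vehicle. Sult2a5, a relative of Sult2a1 and Sult2a2, measured 0.628, 0.234, 2.81 and 0.880 TPM in F/F livers with T0901317, where the highest liver is also the highest for Sult2a1 and Sult2a2. These members were chosen after their values were seen, did not pass the filter on low values, and were not tested.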
